A study of Mus musculus with 11 samples.

Results

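The genes of regulated secretory granules were described here as a set of 10, the granin genes Chga, Chgb, Scg2, Scg3, Scg5, Vgf and Pcsk1n and the processing enzyme genes Pcsk1, Pcsk2 and Cpe. They were chosen by name, matched by symbol, and make up 10 of the 49671 genes counted; all 10 were among the 20893 genes with enough counts to be tested. The cells came from adrenal glands of male Nestin-GFP mice, a transgenic strain in which green fluorescent protein (GFP) reports regulatory sequence of Nestin, a progenitor cell gene. All groups carry the transgene, no agent was given per the labels, and cortical and medullary tissue was pooled from pairs of mice before cells were sorted by fluorescence. The labels call the sorted gates Nestin-positive and Nestin-negative, and they are called GFP-positive and GFP-negative here. The groups were cortical GFP-positive (3 libraries), cortical GFP-negative (3), medullary GFP-positive (3) and medullary GFP-negative cells (2). In both cortical groups libraries 1 and 2 came from mice of about 3.5 months and library 3 from mice of about 2.5 months. Medullary GFP-positive library 1 and both medullary GFP-negative libraries came from mice of about 3.5 months, and medullary GFP-positive libraries 2 and 3 from mice of about 2.5 months. Age and gate are therefore partly confounded in the medulla, and age and tissue are partly confounded in both gates.

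Granins are acidic proteins that condense with hormones in dense-core granules, the storage organelles of endocrine and neuroendocrine cells, and several of them are cut into peptides. In the adrenal gland the chromaffin cells of the medulla are known for such granules, where granins are packed with catecholamines. The convertases encoded by Pcsk1 and Pcsk2 cut prohormones at basic residues, and carboxypeptidase E, encoded by Cpe, trims the basic residues left at the cut end. Scg5 and Pcsk1n encode small proteins that bind the convertases of Pcsk2 and Pcsk1, as a chaperone and as an inhibitor.

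Total counts per library lay between 18500690 and 29204212. Nes, the gene whose regulatory sequence drives the reporter, was at 35.3 to 50.9 CPM (counts relative to library size, scaled by the TMM method) in cortical GFP-positive and 4.59 to 7.44 CPM in cortical GFP-negative libraries. It was at 69.2 to 178 CPM in medullary GFP-positive and 16.1 to 26.1 CPM in medullary GFP-negative libraries. The summed level of 8 chromaffin markers was 6.31 to 44.8 CPM in cortical GFP-positive, 1.10 to 5.23 CPM in cortical GFP-negative, 1312 to 2053 CPM in medullary GFP-positive and 903 to 1444 CPM in medullary GFP-negative libraries. Pnmt, the adrenaline-making enzyme, had no count in either cortical group. Medullary libraries also held 7 steroid cell markers, at 20536 to 35684 CPM in the GFP-positive and 8065 to 15198 CPM in the GFP-negative group. Cortical GFP-positive library 1 stood apart. It held 812 CPM of 5 red blood cell markers, against at most 1.86 CPM in any other library, although the cells had passed a red blood cell lysis step, and it held most of the granin counts of its group. The main results that it moves are given with and without it.

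Upstream sequence is shown first for 5 members, those in which a searched motif was found before the start. A link of sequence to the levels of these genes was not tested. The RefSeq promoter table (build GRCm38.p6) held 8 of the 10 members. The motif TGACGTCA, known as the cAMP response element, was searched on both strands, on which it reads alike. It was found within 250 bases before the start of Chgb, Scg2 and Pcsk1, thus in 3 of 8 members, and in 1.55% of 32851 promoters. The shorter TGACGT or its complement ACGTCA, which overlap inside TGACGTCA, were found before the start of 5 of 8 members, adding Chga and Scg5, and in 6.47% of promoters. Neither was found before the start of Scg3, Pcsk1n or Pcsk2. TATAAA or its complement TTTATA was found there in 0 of 8 members and in 12.4% of promoters. Over the whole window, which also holds bases after the start, it was found in 1 of 8 members, Chga, and in 13.6% of promoters. A match describes letters only. Positions are given relative to the RefSeq start, with -1 for the base before it. That start can differ from the gene bounds given below, as it does for Chga. In the sequences, capitals mark TGACGTCA or, where the last 2 bases differ, TGACGT.
Chga (chr12:102554886-102554915, plus strand, from -55 to -26): gggcggtcctaTGACGTaatttcctgggtg
Chgb (chr2:132781559-132781588, plus strand, from -83 to -54): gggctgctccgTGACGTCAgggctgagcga
Scg2 (chr1:79440076-79440105, minus strand, from -79 to -50): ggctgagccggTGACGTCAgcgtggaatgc
Pcsk1 (chr13:75089768-75089797, plus strand, from -89 to -60): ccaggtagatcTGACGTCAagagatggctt
Scg5 (chr2:113829122-113829341, minus strand, from -250 to -31): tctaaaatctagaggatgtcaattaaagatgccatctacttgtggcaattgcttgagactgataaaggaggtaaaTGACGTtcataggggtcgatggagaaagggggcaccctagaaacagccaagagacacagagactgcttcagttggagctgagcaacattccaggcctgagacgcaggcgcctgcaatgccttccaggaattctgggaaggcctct
Of these, the Chgb and Scg2 windows lie within annotated exons of longer transcripts, and the Chga, Pcsk1 and Scg5 sequences lie outside annotated exons. The TGACGT of Scg5 begins at -175, farther out than that of Chga at -44.

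The classical granins were medullary transcripts. Chga (chromosome 12, 102554969 to 102565027 in mm10, plus strand), which encodes chromogranin A, was at 10.6, 0 and 0 CPM in cortical GFP-positive libraries 1, 2 and 3 and at 0, 0 and 0.118 CPM in cortical GFP-negative libraries. It was at 2335, 1690 and 1307 CPM in medullary GFP-positive libraries and at 2274 and 1548 CPM in medullary GFP-negative libraries. Every medullary library was thus above every cortical library, and the medullary gates overlapped. Chgb (chromosome 2, 132781278 to 132795079, plus strand), encoding chromogranin B, was at 55.8, 1.29 and 0 CPM in cortical GFP-positive cells and had no count in cortical GFP-negative cells. In the medulla it was at 5058, 3788 and 2695 CPM in GFP-positive and 4160 and 2657 CPM in GFP-negative libraries. Scg2 (chromosome 1, 79434669 to 79440120, minus strand), encoding secretogranin II, the precursor of secretoneurin, followed the pattern of Chgb in the cortex, with 63.2, 1.29 and 0 CPM in GFP-positive and no count in GFP-negative libraries. Its medullary libraries read 2901, 1945 and 1638 CPM in GFP-positive and 1636 and 881 CPM in GFP-negative cells. The lowest GFP-positive and the highest GFP-negative medullary libraries for Scg2 lay next to each other.

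The remaining granins differed in how far they reached into the cortex. Scg3 (chromosome 9, 75643189 to 75684056, minus strand), whose protein tethers chromogranin A to granule membranes, was at 3.38, 3.01 and 2.79 CPM in the 3 cortical GFP-positive libraries, with no count in the 3 cortical GFP-negative ones. Unlike for Chga, Chgb and Scg2, each cortical GFP-positive library carried Scg3 at a like level. In the medulla Scg3 was at 69.5, 135 and 71.2 CPM in GFP-positive and 50.4 and 27.8 CPM in GFP-negative cells. Scg5 (chromosome 2, 113776362 to 113829121, minus strand) was at 6.59, 4.98 and 1.67 CPM in cortical GFP-positive libraries and at 61.04, 40.1 and 47.0 CPM in cortical GFP-negative libraries. Scg5 was the only granin gene here whose cortical GFP-negative libraries all lay above the cortical GFP-positive ones. Its medullary libraries read 164, 190 and 121 CPM in GFP-positive and 118 and 111 CPM in GFP-negative cells. Pcsk1n (chromosome X, 7919822 to 7924410, plus strand), which encodes proSAAS, was at 2.41, 0.430 and 0.180 CPM in cortical GFP-positive and 0.187, 0.257 and 0.0788 CPM in cortical GFP-negative cells. In the medulla it was at 120, 114 and 76.3 CPM in GFP-positive and 67.7 and 52.7 CPM in GFP-negative libraries. Eras, on the other strand, shares up to 135 exonic bases with Pcsk1n, and without strand in the kit reads there cannot be told apart. Vgf (chromosome 5, 137026392 to 137033351, plus strand), a granin-like peptide precursor induced by neurotrophins, was scarce everywhere. It had 0, 0 and 1 counts in cortical GFP-positive and no count in cortical GFP-negative libraries. Its medullary levels were 0.877, 3.51 and 0.783 CPM in GFP-positive and 1.35 and 0.406 CPM in GFP-negative libraries, where the gates overlapped.

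The enzyme genes split between the tissues. Pcsk1 (chromosome 13, 75089826 to 75132498, plus strand) was at 1.43, 0.0859 and 0 CPM in cortical GFP-positive and 2.28, 0.955 and 0.236 CPM in cortical GFP-negative libraries. In the medulla it was at 33.7, 43.0 and 29.2 CPM in GFP-positive and 21.4 and 8.94 CPM in GFP-negative cells. Pcsk2 (chromosome 2, 143546156 to 143816285, plus strand) was present in every library, at 3.07, 3.99 and 1.94 CPM in cortical GFP-positive and 6.27, 3.08 and 5.04 CPM in cortical GFP-negative cells. The medullary values of Pcsk2 were 19.7, 22.1 and 17.2 CPM in GFP-positive and 7.52 and 5.48 CPM in GFP-negative cells. The lower medullary GFP-negative library of Pcsk2 lay within the range of cortical GFP-negative cells, whereas its medullary GFP-positive libraries stood above all others. Antisense genes, Pcsk2os1 and Pcsk2os2, share up to 260 exonic bases with Pcsk2. Cpe (chromosome 8, 64592542 to 64693054, minus strand) ran the other way from the remaining 9 genes. It was at 1360.0, 1585 and 1789.7 CPM in cortical GFP-positive and 2244, 2608 and 2301 CPM in cortical GFP-negative libraries. In the medulla it was at 602, 503 and 819.9 CPM in GFP-positive and 1027 and 942 CPM in GFP-negative libraries. For Cpe the 4 groups did not overlap, with cortical GFP-negative cells at the top and medullary GFP-positive cells at the bottom.

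**Figure D1:**
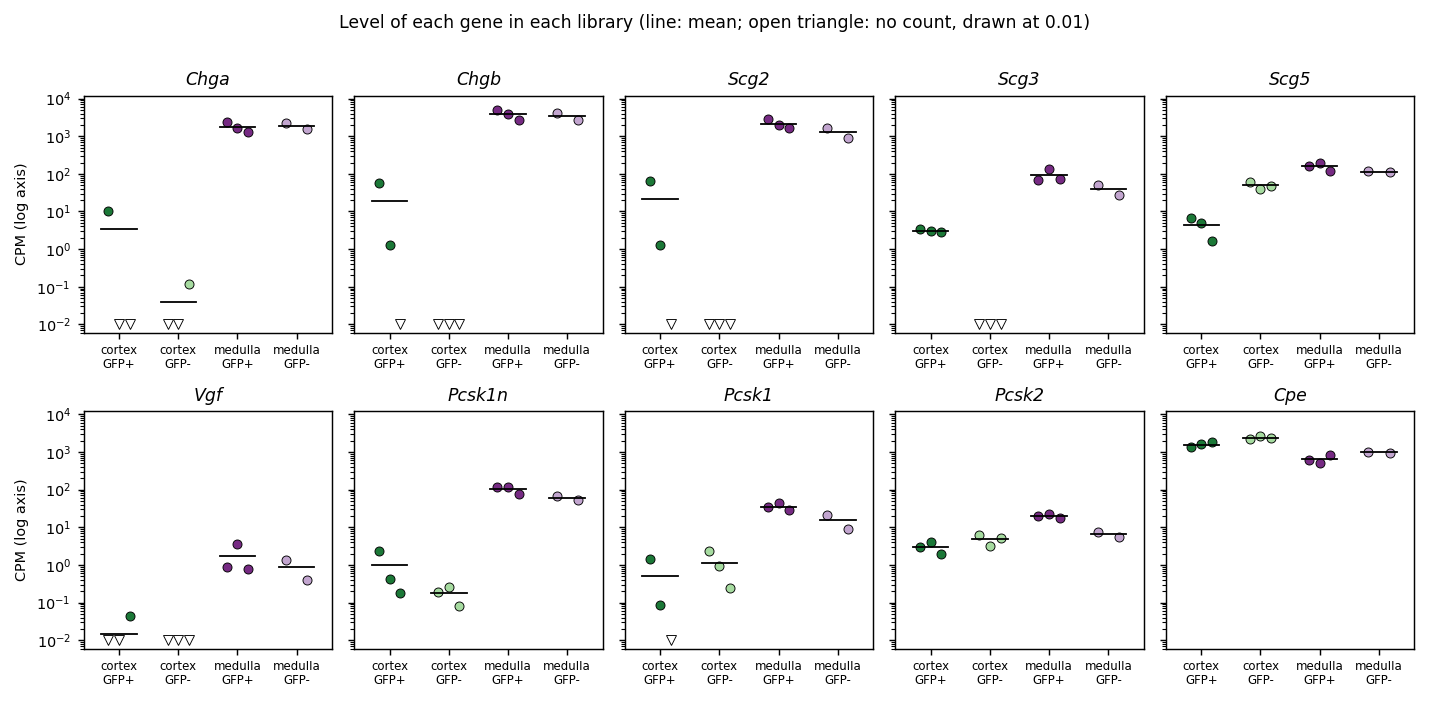
Level in CPM (log axis) of the 10 genes in each of the 11 libraries, grouped by tissue and gate; each point is a library, lines are group means, and open triangles drawn at 0.01 are libraries with no count. Scg3 was found in the 3 cortical GFP-positive and none of the cortical GFP-negative libraries, Scg5 was higher in cortical GFP-negative cells, and Cpe was the only one of the 10 with its higher levels in the cortex.

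Between genes, levels were compared as CPM per kilobase of counted gene length. Cpe led in cortical GFP-positive cells at 605 ± 82.4 CPM per kilobase (SD, n = 3) and in cortical GFP-negative cells at 914 ± 75.1 CPM per kilobase (SD, n = 3). The next gene in cortical GFP-negative cells was Scg5 at 31.5 ± 6.80 CPM per kilobase (SD, n = 3), followed by Pcsk2 at 0.607 ± 0.203 CPM per kilobase (SD, n = 3), with no overlap between libraries of these 3 genes. In cortical GFP-positive cells, each of the 9 genes below Cpe overlapped its neighbour in the order of means, though Scg5 and Scg3 lay above Pcsk2, Pcsk1 and Vgf in every library. In medullary GFP-positive cells Chgb averaged 1404 ± 432, Chga 944 ± 276 and Scg2 859 ± 262 CPM per kilobase (SD, n = 3 each), and neighbours in this order overlapped. Cpe at 246 ± 62.1, Scg5 at 101 ± 22.4 and Pcsk1n at 47.2 ± 10.8 CPM per kilobase (SD, n = 3 each) followed without overlap, then Scg3, which overlapped Pcsk1n. Of the convertase genes, Pcsk1 averaged 10.9 ± 2.18 and Pcsk2 2.49 ± 0.307 CPM per kilobase (SD, n = 3 each) in these cells, without overlap. The 10 means fell in the same order in medullary GFP-negative cells, from Chgb at 1244 ± 388 to Vgf at 0.296 ± 0.225 CPM per kilobase (SD, n = 2 each). As a share of the 10 genes per kilobase, Cpe made up 89.9 to 99.6% in cortical GFP-positive, 95.5 to 97.4% in cortical GFP-negative, 4.94 to 11.3% in medullary GFP-positive and 10.1 to 13.8% in medullary GFP-negative libraries. Scg5 made up 0.154 to 0.725% in cortical GFP-positive and 2.49 to 4.32% in cortical GFP-negative libraries.

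**Figure D2:**
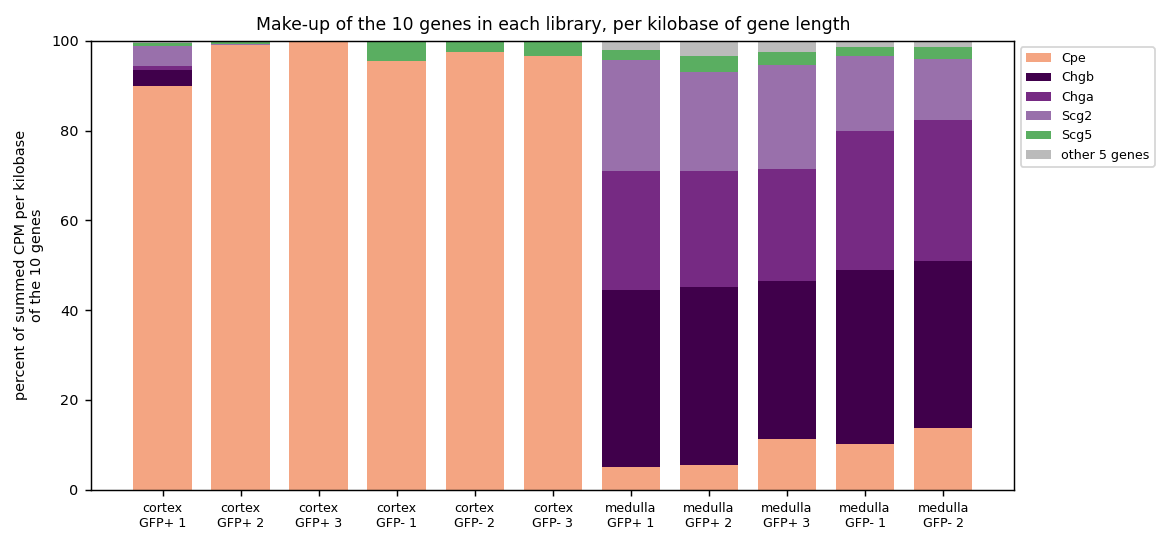
Share of each gene in the summed CPM per kilobase of the 10 genes, in percent, for each of the 11 libraries (stacked bars; the 5 genes not named are drawn together). Cpe filled 89.9 to 99.6% of the cortical GFP-positive bars and at most 13.8% of a medullary bar, where Chgb, Chga and Scg2 filled most of the rest.

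In the cortex, the comparison of GFP-positive with GFP-negative cells asks which transcripts mark the reporter-positive cells. Of the 10 genes, 2 were higher and 2 lower in GFP-positive cells at an adjusted p under 0.05, by edgeR's quasi-likelihood test with Benjamini-Hochberg adjustment over all genes tested. Over all genes 14.7% were called in this comparison, 7.14% higher and 7.59% lower, and the median log2 difference was 2.22 over the 10 genes (0.13 without cortical GFP-positive library 1) against 0.03 over all genes. Scg3 was at least 81.0-fold higher in cortical GFP-positive than in GFP-negative cells (edgeR adjusted p = 0.000416), as its 208 counts were set against 3 counts, the floor used over a group that had none. Scg5 was 11.2-fold lower in cortical GFP-positive cells, a log2 change of -3.48 ± 0.411 (SE, edgeR adjusted p = 0.000585). Both calls held in 19 of 19 other settings, including that without library 1 of the cortical GFP-positive group (edgeR adjusted p = 0.00154 for Scg3 and 0.00116 for Scg5). In bulk samples, fewer cells of a type and less RNA per cell cannot be told apart.

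The other calls in the cortex were weaker. Cpe was lower in cortical GFP-positive cells by a log2 change of -0.60 ± 0.175 (SE, edgeR adjusted p = 0.0466), with means of 1578 ± 215 CPM in GFP-positive and 2384 ± 196 CPM in GFP-negative cells (SD, n = 3 each). It was not called in 10 of 19 other settings, among them without any 1 of the 6 cortical libraries (edgeR adjusted p = 0.0551 to 0.142) and without medullary GFP-positive library 1 or either medullary GFP-negative library (0.0525 to 0.0600). Chgb was called higher (edgeR adjusted p = 0.0495; at least 503-fold), but 1252 of its 1282 counts were in library 1, and the groups overlapped at 0. With robust dispersions, the setting first used, Chgb was not called (edgeR adjusted p = 0.0516). Without that library it was at a fitted 6.99 on the log2 scale and not called (edgeR adjusted p = 0.0868). In all it was not called in 13 of 18 other settings, among them without any 1 cortical GFP-negative or medullary library (0.0654 to 0.112). Scg2 had the same layout, with 1418 of 1448 counts in library 1, and missed the threshold (edgeR adjusted p = 0.0506, and 0.0933 without that library). Leaving out GFP-positive library 2 or library 3 brought Scg2 past it (edgeR adjusted p = 0.0432 and 0.0177).

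For Chga, the 237 counts of cortical GFP-positive library 1 stood against 3 counts in the GFP-negative group, a ratio of 92.3 with an exact 95% counting interval of 31.2 to 451, and the test missed the threshold (edgeR adjusted p = 0.0755). Its difference turned round without library 1, to a log2 difference of -3.07 (edgeR adjusted p = 0.445), and it was called when GFP-positive library 2 or 3 was left out (0.0353 and 0.0359). Pcsk1n was not called (log2 difference 2.48 ± 0.872, SE, edgeR adjusted p = 0.0853) with 54 of its 68 counts in library 1. Without library 1 its difference was 0.78 (edgeR adjusted p = 0.417), and without library 3 it was called (0.0295). Pcsk1 (-1.20 ± 1.07) was not called and was called lower without library 1 (-4.58, edgeR adjusted p = 0.0446). Pcsk2, at -0.68 ± 0.348 (SE, edgeR adjusted p = 0.227), was not called. Vgf had 1 count in the 6 cortical libraries and allows no comparison of the gates. Without cortical GFP-positive library 1, 3 of the 10 genes were called in the cortex, Scg3 higher and Scg5 and Pcsk1 lower.

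Markers of several other cell types moved with the cortical gate. The 5 endothelial markers overlapped, at 37.2 to 109 CPM in GFP-positive and 26.3 to 96.2 CPM in GFP-negative libraries. Summed over 7 Schwann cell and glial markers, GFP-positive libraries held 193 to 220 CPM and GFP-negative libraries 2.95 to 10.8 CPM. Over 6 macrophage markers the ranges were 31.8 to 193 CPM in GFP-positive and 2527 to 3374 CPM in GFP-negative libraries, and over 7 steroid cell markers 58999 to 65334 CPM in GFP-positive and 34131 to 38969 CPM in GFP-negative libraries. Within that list Cyp11b2, the aldosterone synthase gene of the outer cortex, ran the other way, at 62.5 to 103 CPM in cortical GFP-positive and 958 to 1395 CPM in cortical GFP-negative libraries, as did Scg5. The 5 markers of pericytes and smooth muscle summed to 54.4 to 211 CPM in GFP-positive and 1.46 to 3.89 CPM in GFP-negative libraries, and 5 fibroblast markers to 37.3 to 94.0 CPM in GFP-positive and 2.46 to 17.3 CPM in GFP-negative libraries. Of the chromaffin markers, Dbh and Pnmt had no count in cortical GFP-negative libraries. Dbh, which makes noradrenaline, was at 17.7, 0 and 7.97 CPM in cortical GFP-positive libraries 1, 2 and 3, so library 2 held Scg3 at 3.01 CPM with no count of Dbh, Th or Chga. Over 6 neuronal markers the summed level was 2.57 to 16.6 CPM in GFP-positive and 1.38 to 3.73 CPM in GFP-negative libraries. The part of these cells in the changes of Scg3, Scg5 and Cpe was not tested.

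In the medulla, GFP-positive and GFP-negative cells held the major granins at levels whose difference did not pass the test. Of the 10 genes, 2 were higher and 1 lower in GFP-positive cells, where 21.4% of all genes were called, 10.2% higher and 11.1% lower. The median log2 difference was 0.78 over the 10 genes against 0.09 over all genes. Pcsk2 was 3.02-fold higher in GFP-positive cells, with 19.7 ± 2.42 CPM (SD, n = 3) against 6.504 ± 1.44 CPM (SD, n = 2) in GFP-negative cells, a log2 change of 1.596 ± 0.402 (SE, edgeR adjusted p = 0.0182). That call was lost without either GFP-negative library (edgeR adjusted p = 0.0508 without library 1 and 0.124 without library 2), each of which leaves 1 library in the arm. Scg3 was 2.36-fold higher, with a log2 change of 1.24 ± 0.369 (SE, edgeR adjusted p = 0.0467), and Cpe 1.53-fold lower, at -0.62 ± 0.193 (SE, edgeR adjusted p = 0.0455). Scg3 and Cpe lost their calls in 10 and 11 of 19 other settings, age as a term among them (edgeR adjusted p = 0.164 for Scg3 and 0.0656 for Cpe). For Scg3 these included leaving out any 1 cortical GFP-positive library, cortical GFP-negative library 1, medullary GFP-positive library 2 or 3, or medullary GFP-negative library 2 (0.0510 to 0.237), and for Cpe cortical GFP-positive library 3, cortical GFP-negative library 2 or 3, medullary GFP-positive library 1 or 2, or either medullary GFP-negative library (0.0503 to 0.162).

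The other 7 genes were not called between the medullary gates. Chga averaged 1777 ± 519 CPM in GFP-positive (SD, n = 3) and 1911 ± 513 CPM in GFP-negative cells (SD, n = 2), a log2 change of -0.10 ± 1.177 (SE). For Chgb, with 3847 ± 1182 CPM in GFP-positive (SD, n = 3) and 3408 ± 1063 CPM in GFP-negative cells (SD, n = 2), the difference was 0.17 ± 1.54 (SE). The direction of Chga, Chgb and Vgf turned round in some other settings. Scg2 at 0.78 ± 1.598, Pcsk1n at 0.78 ± 0.597, Scg5 at 0.47 ± 0.410, Pcsk1 at 1.22 ± 1.04 and Vgf at 0.97 ± 1.13 (log2 difference ± SE) also missed the threshold. Spread was estimated for each gene over all 11 libraries, so these SEs also hold the spread between cortical libraries. Without cortical GFP-positive library 1, Chga, Chgb and Scg2 were still not called, at -0.175, 0.104 and 0.713 (edgeR adjusted p = 0.774, 0.932 and 0.491). The 7 Schwann cell and glial markers summed to 1547 to 3560 CPM in medullary GFP-positive and 13.6 to 22.4 CPM in GFP-negative libraries, where Sox10 and Foxd3 were at 0. The 6 macrophage markers summed to 317 to 999 CPM in GFP-positive and 13491 to 15865 CPM in GFP-negative libraries, and the 6 neuronal markers to 457 to 656 CPM in GFP-positive and 218 to 290 CPM in GFP-negative libraries. Cyp11b2 was at 0.361 to 2.89 CPM in medullary GFP-positive and 399 to 568 CPM in medullary GFP-negative libraries. The part of these cells in the results on Pcsk2, Scg3 and Cpe was not tested.

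**Figure D3:**
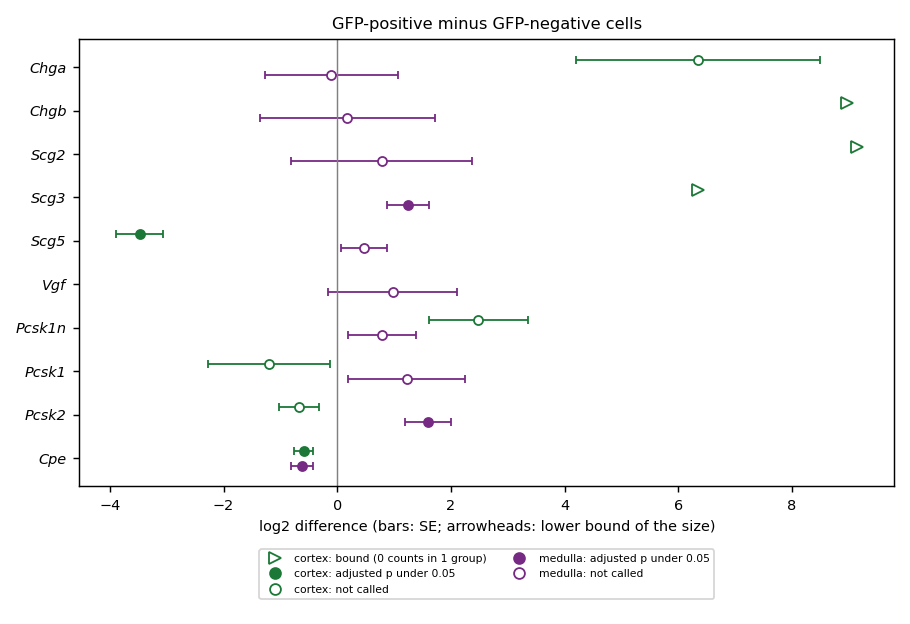
Log2 difference between GFP-positive and GFP-negative cells for each gene in the cortex (green) and the medulla (purple), with bars of 1 SE; filled points passed an adjusted p of 0.05, and open arrowheads are lower bounds of the size where the GFP-negative group had no count, drawn without their call. Vgf is not drawn for the cortex, where it had 1 count in all. Scg5 lies at -3.48 in the cortex and 0.47 in the medulla, whereas Cpe lies close to -0.6 in both.

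The change with the gate differed between the tissues for 2 of the 10 genes, by the test of the difference itself, the interaction of gate and tissue, in which 1.61% of all genes were called, 0.857% higher and 0.756% lower. For Scg5 the change in the cortex minus that in the medulla was -3.95 ± 0.589 on the log2 scale (SE, edgeR adjusted p = 0.0212). That call was lost without medullary GFP-negative library 2 (-3.91, edgeR adjusted p = 0.0839). For Scg3 the fitted difference was 7.98 (edgeR adjusted p = 0.0223), a value that depends on a group with no count, and it was lost without cortical GFP-negative library 2 (0.0509). Pcsk2, at -2.27 ± 0.529 (SE, edgeR adjusted p = 0.0658), missed the threshold and was called with total counts alone as scaling (-2.45, 0.0415) and by DESeq2 (0.00119). For Cpe the change with the gate differed by 0.02 ± 0.262 between the tissues (log2, SE). Under total counts alone the median of all genes in this comparison lay at -0.19 in place of -0.02.

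Between the tissues, all 10 genes differed in GFP-positive cells, 9 lower and 1 higher in the cortex, where 15.5% of all genes were called, 9.45% lower and 6.04% higher. The median log2 difference was -6.28 over the 10 genes against -0.03 over all genes. Among the granins, Chga was lower by a log2 change of -8.98 ± 1.51 (SE, edgeR adjusted p = 0.00376), Pcsk1n by -6.68 ± 0.699 (0.000386), Scg5 by -5.16 ± 0.440 (0.000196) and Scg3 by -4.91 ± 0.380 (0.000276). Of the enzymes, Pcsk1 was lower by -6.12 ± 1.16 (edgeR adjusted p = 0.00686) and Pcsk2 by -2.71 ± 0.364 (0.00125), whereas Cpe was 2.46-fold higher in the cortex, at 1.30 ± 0.178 (0.00135). These 7 calls held in 19 of 19 other settings. Without cortical GFP-positive library 1, which held all cortical GFP-positive counts of Chga, Chga was at least 26787-fold lower, Pcsk1 lay at -9.48 and Pcsk1n at -8.36, and the median over the 10 genes at -7.16. Scg2, at -6.65 ± 1.79 (edgeR adjusted p = 0.0409), lost its call in 7 of 19, without cortical GFP-positive library 2 or any 1 medullary library (0.0550 to 0.0780) and with only the compared groups in the fit. Chgb, at -7.66 ± 1.84 (edgeR adjusted p = 0.0266), lost it without cortical GFP-positive library 2 or medullary GFP-positive library 1 or 2 (0.0532 to 0.0548). Without cortical GFP-positive library 1 both lay further apart, at -11.67 for Scg2 and -12.50 for Chgb. Vgf had 1 count in cortical and 133 in medullary GFP-positive cells, a ratio of 134 with an exact 95% counting interval of 23.7 to 5344. Its call (edgeR adjusted p = 0.0165) was lost without cortical GFP-positive library 1 or medullary GFP-positive library 2 (0.0568 and 0.0553).

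In GFP-negative cells, 7 of the 10 genes were lower and 1 higher in the cortex, where 18.6% of all genes were called, 10.6% lower and 8.06% higher. The median log2 difference was -7.90 over the 10 genes, -6.46 with genes of no count at their bound, against -0.02 over all genes. Chgb was at least 90224-fold, Scg2 at least 33313-fold, Scg3 at least 1034-fold and Vgf at least 23.3-fold lower in the cortex. For Chga, 3 counts in the cortical stood against 100353 in the medullary libraries, a ratio of 51091 with an exact 95% counting interval of 17482 to 247750. Pcsk1n was lower by a log2 change of -8.38 ± 0.824 (SE, edgeR adjusted p = 0.000432), and Cpe was 2.42-fold higher, at 1.28 ± 0.204 (0.00316). Adjusted p-values of the 5 granins with bounds or counting intervals lay between 0.000147 for Scg3 and 0.0145 for Vgf. Pcsk1 was lower, at -3.70 ± 1.06 (edgeR adjusted p = 0.0369), and lost its call in 8 of 19 other settings, without cortical GFP-negative library 2 or 3 or any 1 medullary library (0.0508 to 0.136) and with age as a term. Scg5 and Pcsk2 were not called, at -1.21 ± 0.400 (edgeR adjusted p = 0.0608) and -0.44 ± 0.380 (0.463). For Scg5 the cortical GFP-negative libraries held 49.4 ± 10.7 CPM (SD, n = 3) against 114 ± 5.07 CPM in the medullary ones (SD, n = 2), and leaving out cortical GFP-positive library 1 or 3 made it a call (0.0366 and 0.00931).

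**Figure D4:**
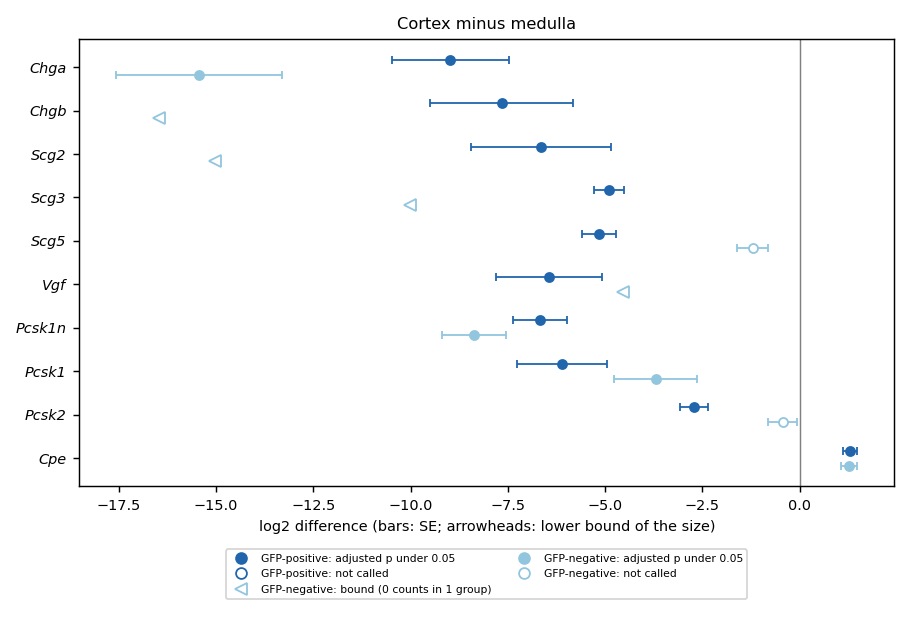
Log2 difference between cortex and medulla for each gene in GFP-positive (dark blue) and GFP-negative cells (light blue), with bars of 1 SE; filled points passed an adjusted p of 0.05, and arrowheads are lower bounds of the size where the cortical group had no count. Scg5 and Pcsk2 are much closer to 0 in GFP-negative cells, and Cpe lies at about 1.3 in both.

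The proportions of the granin transcripts in cortical GFP-positive library 1 were set beside those of the medulla, since that library alone in the cortex held enough Chga for a ratio of counts. It had 5.28 counts of Chgb for each count of Chga, against 2.06 to 2.24 in medullary GFP-positive and 1.72 to 1.83 in medullary GFP-negative libraries. For Scg2 the ratio was 5.98 there, against 1.15 to 1.25 in medullary GFP-positive and 0.569 to 0.719 in medullary GFP-negative libraries. Its ratios of Pcsk1n at 0.228, Scg3 at 0.321 and Scg5 at 0.624 were likewise above the medullary ranges, which reached 0.0677, 0.0802 and 0.113. Scg3 was at 3.38 CPM in that library and at 3.01 and 2.79 CPM in cortical GFP-positive libraries 2 and 3. Scg5 was at 6.59 CPM in library 1 against 4.98 and 1.67 CPM in libraries 2 and 3. Libraries 2 and 3 had no count of Chga, so these ratios depend on the few Chga counts of library 1. Dbh stood at 1.68 counts for each count of Chga in that library, against 0.334 to 0.400 in medullary GFP-positive and 0.180 to 0.202 in medullary GFP-negative libraries, while Th, which encodes tyrosine hydroxylase, was at 0.131 there, against 0.177 to 0.331 in medullary GFP-positive and 0.176 to 0.286 in medullary GFP-negative libraries. Of the genes named here, all but Th thus had a higher ratio in that library than in any medullary library, and Vgf had no count in it. This is a single library, so the ratios have no replicate check. Within the medulla the ratio of Scg2 to Chga did not overlap between gates, with the GFP-positive libraries above the GFP-negative ones. The same held for Chgb, Scg3, Pcsk1n, Pcsk1, Pcsk2 and Dbh, whereas the ratios of Scg5, Vgf, Cpe and Th overlapped. All these ratios share the Chga counts, and ratios of other genes to Chga were not taken.

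**Figure D5:**
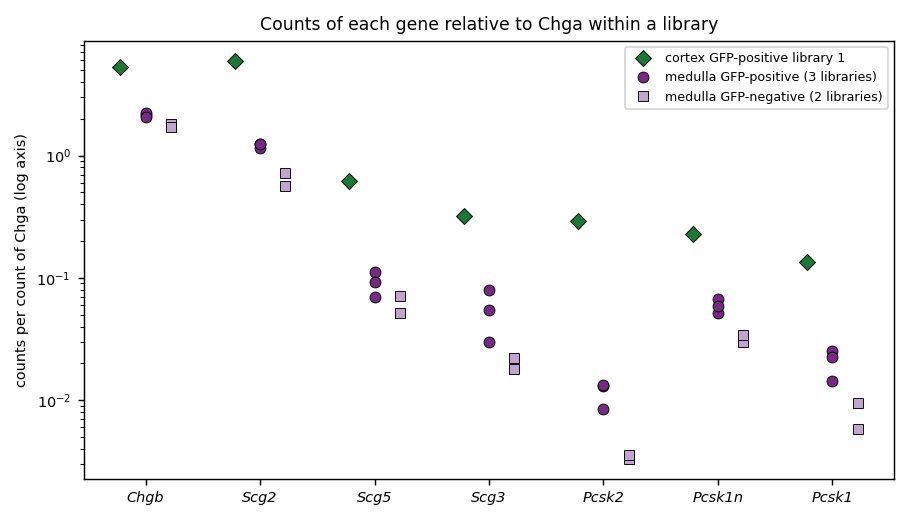
Counts of Chgb, Scg2, Scg5, Scg3, Pcsk2, Pcsk1n and Pcsk1 for each count of Chga (log axis) in cortical GFP-positive library 1 (green diamond), the 3 medullary GFP-positive libraries (purple circles) and the 2 medullary GFP-negative libraries (light squares). The diamond lies above the medullary points for these 7 genes, unlike for Th and Vgf, which are not drawn, at 5.28 for Chgb and 5.98 for Scg2. Scg3, Scg5 and Pcsk2 were also present in cortical GFP-positive libraries 2 and 3, which had no count of Chga.

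Other genes of the pathway were taken in 5 lists, and their counts stand beside shares of all genes called of 14.7% between cortical gates, 21.4% between medullary gates, 15.5% between the tissues in GFP-positive and 18.6% in GFP-negative cells. Among 6 other proprotein convertases, all tested, 1 was higher and 1 lower in GFP-positive cells in either tissue. Pcsk6, a convertase of the constitutive pathway, was higher in both. In the cortex it was at 19.2, 14.2 and 13.4 CPM in GFP-positive and 0, 2.09 and 0.473 CPM in GFP-negative libraries (log2 difference 4.17 ± 1.11, SE, edgeR adjusted p = 0.0310), and in the medulla at 13.6, 17.2 and 14.8 CPM in GFP-positive and 0.548 and 0 CPM in GFP-negative libraries (5.74 ± 1.47, 0.0198). Mbtps1, a convertase of the Golgi, was lower in the cortex (-0.54 ± 0.162, edgeR adjusted p = 0.0497) and Pcsk7 lower in the medulla (-1.23 ± 0.310, 0.0180). The convertase genes Pcsk5 and Furin were higher in cortical than in medullary GFP-positive cells (log2 difference 1.73 ± 0.249 and 0.92 ± 0.187, SE, edgeR adjusted p = 0.00179 and 0.00915), and Pcsk5 also in GFP-negative cells (1.53 ± 0.285, 0.00628). The list's median log2 difference was 0.24 between the tissues in GFP-positive and 0.34 in GFP-negative cells. Between the gates it was 0.01 in the cortex and 0.06 in the medulla. Pcsk6 lost its cortical call without any 1 of the cortical GFP-positive libraries or without cortical GFP-negative library 3 (edgeR adjusted p = 0.0550 to 0.1065) and its medullary call without medullary GFP-negative library 2 (0.0910), Pcsk7 its call without medullary GFP-positive library 3 or either GFP-negative one (0.0514 to 0.0876), and Pcsk5 its call in GFP-negative cells without medullary GFP-negative library 2 (0.0614). Mbtps1 lost its call in 10 of 19 settings, among them without cortical GFP-positive library 2 or 3, any 1 cortical GFP-negative library or medullary GFP-positive library 1 or 3 (0.0580 to 0.1398).

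Of 6 other carboxypeptidases of the family of Cpe, 4 were tested. Cpm, a membrane-bound carboxypeptidase, was lower in GFP-positive cells of both tissues, with means of 35.7 CPM in cortical GFP-positive and 122 CPM in cortical GFP-negative cells (log2 difference -1.78 ± 0.301, SE, edgeR adjusted p = 0.00359) and of 13.2 CPM in medullary GFP-positive and 53.3 CPM in medullary GFP-negative cells (-2.01 ± 0.328, 0.00193). It was higher in the cortex in GFP-positive (1.44 ± 0.302, edgeR adjusted p = 0.0109) and GFP-negative cells (1.20 ± 0.339, 0.0344), while Cpd was lower in the cortex in GFP-negative cells (-1.37 ± 0.224, 0.00348). Cpm thus changed in the direction of Cpe in all 4 comparisons, which share libraries. The last call on Cpm was lost without any 1 cortical GFP-negative library or medullary GFP-negative library 2 (0.0644 to 0.2148). The list's median was -0.53 between the cortical and 0.74 between the medullary gates, and -1.27 between the tissues in GFP-positive and -0.25 in GFP-negative cells.

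Among 7 other genes of prohormone modification, all tested, Pam, which amidates peptides, was lower in cortical GFP-positive cells (-0.63 ± 0.179, edgeR adjusted p = 0.0419) and higher in cortical than in medullary GFP-negative cells (0.91 ± 0.206, 0.0136). Rnpep, aminopeptidase B, was lower in medullary GFP-positive cells, with means of 40.9 CPM there and 133 CPM in medullary GFP-negative cells (-1.69 ± 0.231, edgeR adjusted p = 0.000744), and lower in the cortex in GFP-negative cells (-1.01 ± 0.230, 0.0141). Qpct, which forms pyroglutamate ends, was lower in the cortex in both gates, by -2.49 ± 0.483 in GFP-positive and -2.27 ± 0.510 in GFP-negative cells (edgeR adjusted p = 0.00768 and 0.0135). Ctsl, a protease, followed with -0.84 ± 0.148 and -0.60 ± 0.163 (0.00480 and 0.0297), and Tpst2, a tyrosine sulfotransferase, was higher in cortical GFP-positive cells (0.82 ± 0.168, 0.00979). In all, 1 of the 7 was lower between the gates in each tissue; between the tissues, 1 was higher and 2 lower in GFP-positive and 1 higher and 3 lower in GFP-negative cells. The list's median log2 difference lay between -0.08 and 0.19 over these comparisons. Pam lost its call between cortical gates in 8 of 19 settings, among them without cortical GFP-positive library 1 or 3, any 1 cortical GFP-negative library or medullary GFP-positive library 3 (edgeR adjusted p = 0.0541 to 0.1029). In GFP-negative cells Pam, Qpct and Rnpep lost theirs without medullary GFP-negative library 2 (0.0750 to 0.1209), and Ctsl without cortical GFP-negative library 2 or 3 or medullary GFP-negative library 1 (0.0729 to 0.1949).

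Of 11 genes of granule biogenesis and membrane, all tested, most were not called. Ptprn, a transmembrane phosphatase-like protein of dense-core granules, was higher in cortical GFP-positive cells, at 6.32, 4.64 and 5.81 CPM against 0.224, 0.734 and 0 CPM in GFP-negative libraries (log2 difference 4.09 ± 0.649, SE, edgeR adjusted p = 0.00259). As with Scg3, all 3 cortical GFP-positive libraries lay above the GFP-negative ones. Ptprn was lower in the cortex than in the medulla, by -3.00 ± 0.548 in GFP-positive and -6.51 ± 0.703 in GFP-negative cells (edgeR adjusted p = 0.00559 and 0.000631). Cyb561, the cytochrome of chromaffin granule membranes, was lower in the cortex by -2.76 ± 0.200 and -2.58 ± 0.210 (0.000174 and 0.000188). Ccdc186 was lower in cortical than in medullary GFP-negative cells (-0.86 ± 0.261, edgeR adjusted p = 0.0447), and in the medulla Arfip1 was higher and Eipr1 lower in GFP-positive cells (0.96 ± 0.275 and -0.96 ± 0.188, 0.0316 and 0.00510). The list's median log2 difference was -0.23 between the cortical and 0.48 between the medullary gates, and -0.16 between the tissues in GFP-positive and 0.34 in GFP-negative cells. The calls on Ptprn, Cyb561 and Eipr1 held in 19 of 19 other settings. Arfip1 lost its call without cortical GFP-negative library 1, medullary GFP-positive library 2 or 3 or medullary GFP-negative library 2 (edgeR adjusted p = 0.0514 to 0.2069), and Ccdc186 without cortical GFP-positive library 3, any 1 cortical GFP-negative library, medullary GFP-positive library 2 or medullary GFP-negative library 2 (0.0510 to 0.2936).

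Among 13 neuropeptide precursors, which are cargo of these granules, 8 were tested. Npy, the precursor of neuropeptide Y, was at 5.43, 5.41 and 0 CPM in cortical GFP-positive cells with no count in cortical GFP-negative cells (at least 95.7-fold, edgeR adjusted p = 0.0345), and averaged 987 CPM in medullary GFP-positive cells. Its cortical groups overlapped at 0. Sst, the somatostatin precursor, was at 13.9, 15.9 and 15.2 CPM in medullary GFP-positive libraries with no count in the GFP-negative ones (at least 260-fold higher, edgeR adjusted p = 0.0424). These were the only calls of the list between gates in this fit. Npy was not called without cortical GFP-positive library 1 or 2, any 1 cortical GFP-negative library or medullary GFP-positive library 1 (edgeR adjusted p = 0.0510 to 0.0825), nor Sst without any 1 medullary library (0.0731 to 0.1411). In the cortex relative to the medulla, 4 were lower in GFP-positive cells, Npy (-8.09 ± 1.17, edgeR adjusted p = 0.00331), the enkephalin precursor Penk (-5.79 ± 1.03, 0.00811), the galanin precursor Gal (-7.48 ± 1.59, 0.0166) and Cartpt (-7.13 ± 1.85, 0.0361), the last of which was not called without any 1 cortical GFP-positive library or medullary GFP-positive library 1 or 2 (0.0597 to 0.1070). In GFP-negative cells Npy was at least 13911-fold, Gal at least 5278-fold and Penk at least 317-fold lower in the cortex (edgeR adjusted p = 0.00181, 0.00929 and 0.00539). The list's median was -6.41 in GFP-positive cells, or -4.89 with genes of no count at their bound, and -6.37 in GFP-negative cells, or -4.93 with bounds. Between the gates the median was 6.00 in the cortex, 4.37 with bounds, and 2.48 in the medulla. Without cortical GFP-positive library 1, Gal lay at -11.88 and Penk at -8.07 in GFP-positive cells, and the fitted median at -7.55 there and at 4.93 between cortical gates.

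The genes whose pattern over the 11 libraries was most like that of each member were found by Pearson's r of log2(CPM + 0.5) among 13313 genes with a mean of at least 5 CPM in some group. These are descriptions, since the libraries share tissue and gate. Chgb and Scg2 were nearest to each other (r = 0.998), followed in both by Slc18a1, the vesicular monoamine transporter of chromaffin cells (0.997 and 0.996). The nearest to Chga were Dlk1 (0.998), Pirt (0.996) and Rab3c (0.995), and to Pcsk1n Rab3c (0.998), Nsg2 (0.998) and Syt1 (0.997). Scg3 lay nearest to Dusp26, Hand2 and Ndufa4l2 (0.990, 0.990 and 0.988). Scg5 lay nearest to Agtr2, an angiotensin receptor (0.995), then Scn8a and Rundc3a (0.980 and 0.970). For Pcsk1 the nearest were Nt5dc2, Cplx1 and 9330182L06Rik (0.984, 0.984 and 0.973), for Pcsk2 Mycl, Zfand4 and Kcnk5 (0.958, 0.953 and 0.9496), and for Cpe Rnf32, E330017L17Rik and Tmem53 (0.980, 0.975 and 0.973). Vgf did not reach 5 CPM in any group. Between members, r was 0.992 for Chga and Chgb, 0.713 for Chga and Scg5 and -0.910 for Chga and Cpe.

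The authors' deposited table for the cortical gates gave Scg3 a log2 fold change of 6.14 (adjusted p = 3.615e-10) and Scg5 one of -3.41 (adjusted p = 2.22e-08), and no other member passed 0.05 there. In the authors' deposited table for the medullary gates none of the 10 genes passed 0.05. The lowest adjusted p was 0.834, for Pcsk2, with a log2 fold change of 1.54 and a standard error of 0.394. For cortical against medullary GFP-positive cells, the authors' deposited table had Scg3 (-4.87), Scg5 (-5.09), Vgf (-4.77), Pcsk1n (-6.35), Pcsk1 (-4.79) and Pcsk2 (-2.70) past 0.05, and not Chga (-3.02), Chgb (-3.66), Scg2 (-3.49) or Cpe (1.24). For Chga between the cortical gates the authors' deposited table gave a log2 fold change of 0.05, against 6.35 in the fit here. For Cpe between the tissues the authors' deposited table paired a log2 fold change of 1.24 and a standard error of 0.194 with an adjusted p of 1, which is not that of a test against no change. Passing 0.05 in the deposited tables thus cannot be set beside passing 0.05 here.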

How the data were processed

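Per the labels' protocols, adrenal cortex and medulla of perfused mice were separated, digested with collagenase and sorted with propidium iodide, and cDNA was primed on the poly(A) tail, amplified and fragmented by transposase, with no molecular identifiers and no strand. The authors deposited whole-number counts of reads per gene for 11 libraries and 3 comparison tables with log2 fold changes and p-values. Those tables also hold 17 per-library columns of normalized values, not used here. Tools listed in the submitters' processing notes, without roles, are featureCounts 1.6.0, DESeq2 1.18.1, bcl2fastq 2.19.1 and GSNAP, with build mm10. Spike-in rows (92, with 10 counts) were left out.

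edgeR 4.0.16 in R 4.3.3 fitted all 11 libraries at once (filterByExpr by group, TMM, glmQLFit and glmQLFTest, 7 residual degrees of freedom, common biological coefficient of variation 0.479), with Benjamini-Hochberg adjustment over 20893 genes and a threshold of 0.05. The test was tested on simulated data. The simulated counts were given less spread than was fitted here, and no claim rests on them. Each SE of a log2 difference is the size of that difference divided by the square root of the test's F statistic. It thus restates the test and is no separate estimate. Where a group had no count, folds are bounds against 3 counts over the group; with 1 to 3 counts an exact 95% interval is given. PCR reads are not independent molecules, so intervals and floors cover counting error only. The labels tie no library to a pool of mice, gates can share animals, and p-values then measure the spread between libraries, which may be technical. Pairs of libraries of a group differed beyond the sampling noise of reads (chi-square per degree of freedom 29.1 to 104). That check cannot tell separate animals from technical spread. Each library was counted as 1 sample. Coordinates are mm10 and exon overlaps are from GENCODE M21.

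The members and lists were chosen with earlier results of these data known. Named were all members, up to 4 called genes with the lowest adjusted p per list and comparison, and the 3 genes most like each member.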

Additional observations from a re-analysis of the deposited data

Results flagged for a closer look

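The change with the gate differed between the tissues for Scg5, by -3.95 on the log2 scale for cortex minus medulla (edgeR adjusted p = 0.0212 for the interaction). Scg5 was lower in GFP-positive cells of the cortex in 3 of 3 libraries, at 1.67 to 6.59 CPM against 40.1 to 61.04 CPM in GFP-negative cells, while in the medulla it was at 121 to 190 CPM in GFP-positive against 111 to 118 CPM in GFP-negative cells. Macrophage markers were higher in GFP-negative cells of both tissues, at 2527 to 3374 CPM in the cortex and 13491 to 15865 CPM in the medulla. In GFP-positive cells they were at 31.8 to 193 CPM in the cortex and 317 to 999 CPM in the medulla. Cyp11b2 was also higher in GFP-negative cells of both tissues, while summed steroid cell markers and summed Schwann cell and glial markers were lower there. The part of these cells in the difference of Scg5 was not tested.

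The same test flagged Scg3, at 7.98 (edgeR adjusted p = 0.0223), where the cortical GFP-negative group had no count, so that the fitted size depends on the model. Scg3 had 62 to 76 counts in each of 3 cortical GFP-positive libraries. Schwann cell and glial markers summed to 193 to 220 CPM in these and 2.95 to 10.8 CPM in the cortical GFP-negative libraries. Summed markers of steroid cells, of pericytes and smooth muscle and of fibroblasts were also higher in these, and macrophage markers lower. The part of these cells was not tested.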

How the results depend on the processing

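Calls that held in every other setting run were Scg3 and Scg5 between cortical gates, and between the tissues Chga, Pcsk1n, Scg3 and Cpe in both gates, Scg5, Pcsk1 and Pcsk2 in GFP-positive cells, and Chgb, Scg2 and Vgf in GFP-negative cells. The edgeR fit was first made with robust dispersions, and the default dispersions used here were adopted, and the robust fit kept as an alternative, after seeing the data. The call of Chgb between cortical gates came with that change (adjusted p = 0.0495 by default and 0.0516 with robust dispersions), and no other call of the 10 genes differed. With age as a term, 2 of the 10 genes were called between cortical gates (4 in the fit without it) and 1 between medullary gates (3 without it), and 93 genes in all had an interaction (337 without it). With only the compared groups in the fit, 1 of the 10 was called between medullary gates. By DESeq2, 5 of the 10 and 1595 genes in all had an interaction. Total counts alone as scaling gave 1244 genes higher and 2032 lower between cortical gates, against 1492 and 1586, and 122 and 270 against 179 and 158 in the interaction.

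Leaving out 1 library at a time gave 2 to 6 of the 10 genes called between cortical gates, 0 to 2 between medullary gates, 7 to 10 between tissues in GFP-positive and 7 to 9 in GFP-negative cells, and 1 to 2 in the interaction. Over all genes the ranges were 1959 to 3252, 2956 to 4390, 2006 to 3370, 1411 to 4045 and 56 to 489 in the same order. The lone library left in the medullary GFP-negative arm is then assumed to vary like the other groups.

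Some differences that were not called turned round or went to 0, and the cause was not tested. Without 1 library, the log2 difference of Chga ranged from -3.07 to 9.41 between cortical gates, from -0.361 to 0.201 between medullary gates and from -2.89 to 9.51 in the interaction. That of Chgb between medullary gates ranged from -0.118 to 0.535. That of Vgf ranged from 0 to 2.42 between cortical gates, from -0.0811 to 2.08 between medullary gates and from -0.973 to 2.01 in the interaction, and that of Cpe in the interaction from -0.127 to 0.237. With age as a term, Chga lay at 1.09 and Vgf at -0.174 between medullary gates, and with total counts alone the interaction of Cpe lay at -0.151. The lowest values of Chga between cortical gates and in the interaction were without cortical GFP-positive library 1, which held all its cortical GFP-positive counts. The 0 of Vgf between cortical gates was without cortical GFP-positive library 3, which held its only cortical count.

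The correlations of same-numbered libraries' deviations from their group means lay between -0.0122 and 0.0978. Differently numbered libraries were not compared, so these values cannot show whether shared numbers pair the libraries. With the replicate block, 1 of the 10 and 176 genes in all had an interaction, Scg3 lost its interaction (adjusted p = 0.0543) and its call between medullary gates (0.0793), Chgb its call between cortical gates (0.0910), Vgf its call between tissues in GFP-positive cells (0.0546), and Chga between medullary gates lay at 0.375. Of the other pathway genes, Pcsk6, Mbtps1 and Pam lost their calls between cortical gates with the block, Sst between medullary gates, and Ctsl and Ccdc186 between the tissues in GFP-negative cells. With 2 or 3 libraries a group and 3 counts worth 0.0378 to 0.0577 CPM over a group, smaller differences and lower levels were not detectable.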
